A study of Mus musculus with 12 samples.

Results

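Control mouse embryoid bodies (EBs) at day 3 and day 5 of mesodermal differentiation were compared by ATAC-seq, an assay in which Tn5 transposase inserts adapters into accessible DNA, so that peaks of reads mark open chromatin. The comparison took 4 of the 12 libraries of the series, chosen by their labels: iFoxk1_ND at day 3 and iFoxk1_ND at day 5, with 2 libraries for each day. These libraries come from iHA-Foxk1 embryonic stem cells (ESCs) and are described as NoDox, read here as grown without doxycycline. All 12 libraries carry that description, and the other 8 are FoxK1_KO at days 3 and 5, Control at day 10 and Foxk1_KO at day 10, with 2 each. The ESCs had been grown with serum and LIF on irradiated mouse embryonic fibroblasts, and the fibroblasts were reduced by a plating step before the EBs were formed by shaking. The labels do not say whether the line is 1 clone or whether the 2 libraries of a day are separate differentiations, so that each p-value below covers no more than library-to-library spread, possibly of technical origin.

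Each deposited list gives the summits (highest points) of the peaks called in 1 library, with a score for each. Every list was reduced to its 14519 best-scoring summits, the length of the shortest list (day 5 replicate 1), and summits within 250 bp of each other were merged into 25501 regions. Of these, 15158 were reproducible, meaning that they held a summit in both libraries of at least 1 day. A region was called closing when both day 3 libraries and neither day 5 library held a summit, and opening in the reverse case. By this rule 3408 regions (22.5% of the reproducible ones) were closing and 2034 (13.4%) were opening. A call says which libraries list a region among their best summits. EBs mix many cell types, and fewer cells with a region open cannot be told apart from less opening in each cell.

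EBs in mesodermal medium pass through stages that resemble early embryonic development. Pluripotent cells first take on an epiblast state and then a primitive streak state, under Nodal, Wnt and BMP signals, in which the T-box factors brachyury and Eomes and the homeobox factor Mixl1 act. Nascent mesoderm then gives rise to progenitors of heart, vessel and blood, specified by factors such as Gata4, Hand1, Tal1 and the VEGF receptor Kdr. Promoters rich in CpG are open in most cell types, whereas enhancers away from promoters open and close with cell state.

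Printed promoters with a called summit show both kinds of event in sequence. They are the best-ranked promoters of listed genes in each direction among those in the promoter table (RefSeq, GRCm38.p6, the assembly of mm10), from 250 bases before to 50 bases after the start site, 5′ to 3′ along the gene. Capitals mark matches on either strand to the searched letters of a POU octamer, GC box, TEAD, MEF2 or HAND/TWIST E-box motif. Zfp42 (Rex1, a zinc finger protein of naive pluripotency) and Nanog (a homeobox factor of the pluripotency network) lost their promoter summits from the compared lists at day 5. Kdr (the VEGF receptor of mesodermal, endothelial and blood progenitors), Irx3 (an Iroquois homeobox factor) and Mef2a (a MADS-box factor of muscle and heart) gained them. At Mef2a, however, a compared day 3 summit lay within 1 kb of the region, and day 3 replicate 1 held the region itself at rank 15384.
Zfp42, chr8:43306960-43307259, minus strand: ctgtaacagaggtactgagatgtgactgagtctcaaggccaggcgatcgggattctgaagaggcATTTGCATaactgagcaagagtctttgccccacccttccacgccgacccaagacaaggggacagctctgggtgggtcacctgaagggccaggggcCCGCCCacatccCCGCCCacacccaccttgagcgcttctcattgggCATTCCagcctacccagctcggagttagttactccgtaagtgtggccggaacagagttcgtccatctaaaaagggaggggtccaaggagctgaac
Nanog, chr6:122707239-122707538, plus strand: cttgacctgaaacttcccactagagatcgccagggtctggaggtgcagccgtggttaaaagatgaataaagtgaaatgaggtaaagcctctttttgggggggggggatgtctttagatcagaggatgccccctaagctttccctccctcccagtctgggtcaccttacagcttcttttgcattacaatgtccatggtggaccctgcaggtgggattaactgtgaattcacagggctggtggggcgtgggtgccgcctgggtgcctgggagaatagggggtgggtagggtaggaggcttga
Kdr, chr5:75978406-75978705, minus strand: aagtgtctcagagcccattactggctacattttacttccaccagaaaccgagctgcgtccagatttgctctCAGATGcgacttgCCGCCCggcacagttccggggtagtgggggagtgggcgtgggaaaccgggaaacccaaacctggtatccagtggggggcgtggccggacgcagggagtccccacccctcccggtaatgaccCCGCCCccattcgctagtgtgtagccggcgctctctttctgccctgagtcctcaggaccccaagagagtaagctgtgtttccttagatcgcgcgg
Irx3, chr8:91801605-91801904, minus strand: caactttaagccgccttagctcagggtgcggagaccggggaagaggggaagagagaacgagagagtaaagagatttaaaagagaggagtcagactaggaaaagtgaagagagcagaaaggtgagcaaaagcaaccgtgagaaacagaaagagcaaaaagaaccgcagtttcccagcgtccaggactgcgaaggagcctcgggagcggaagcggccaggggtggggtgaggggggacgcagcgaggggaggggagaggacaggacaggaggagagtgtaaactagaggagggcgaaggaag
Mef2a, chr7:67372809-67373108, minus strand: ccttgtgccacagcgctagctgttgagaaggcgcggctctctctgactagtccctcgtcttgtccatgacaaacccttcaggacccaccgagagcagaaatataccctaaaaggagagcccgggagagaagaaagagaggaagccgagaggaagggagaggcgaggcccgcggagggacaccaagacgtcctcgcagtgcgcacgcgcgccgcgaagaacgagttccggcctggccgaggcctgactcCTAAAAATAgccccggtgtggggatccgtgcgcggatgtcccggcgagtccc

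In the Zfp42 promoter the day 3 summits lay at -47 and -71 from the start site, a POU octamer (ATTTGCAT) began at -186, and GC boxes (CCGCCC) began at -91 and -79. In the Nanog promoter they lay at -12 and -56, and none of the searched motifs other than CANNTG was found in the window. The search took exact letters only, so a site that differs by 1 letter is not marked. The Nanog window does hold such near matches to the octamer and to the SOX letters given below (ttttgcat and acaatgt). The window of Kdr held the day 5 replicate 2 summit at -23 and GC boxes at -166 and -45, and that of Irx3 held the replicate 1 summit at -152. The Mef2a window, at a start site inside the gene, held both day 5 summits (-189 and -27) and a MEF2 match (CTAAAAATA) at -2. The pluripotency promoters were 57.7% (Zfp42) and 54.3% (Nanog) G or C with 11 and 4 CG dinucleotides. The closing promoter of the neural gene Olig2, not printed, was 65.0% G or C with 25 CG dinucleotides. The printed opening promoters were 60.7% (Kdr), 56.0% (Irx3) and 62.3% (Mef2a) G or C with 19, 14 and 27.

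The 4 libraries differed in length far more at day 5 than at day 3. The lists held 53473 and 54100 summits on chromosomes 1 to 19 and X at day 3, against 14519 and 34040 at day 5. The compared summits were therefore 27.2% and 26.8% of the day 3 lists but 100% and 42.7% of the day 5 lists, and their lowest scores were 21.3 and 22.7 against 1.32 and 16.0. Read depth is unknown, since the lists hold no read counts. Replicates shared 82.1% of compared summits at day 3 and 65.6% at day 5, and libraries of different days shared 50.4% to 62.6%. Day 5 replicate 1 thus stood apart, and each result below gives its 2 day 5 libraries separately where it can.

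The exact 95% binomial intervals of these shares, which cover counting error only, were 21.8% to 23.2% for closing and 12.9% to 14.0% for opening regions. Another 6764 regions held a summit in all 4 libraries, and 2952 in both libraries of 1 day and 1 of the other. Of the closing regions, 1031 still had a day 5 replicate 2 summit below the compared ranks (median rank 24491), and 2377 had no day 5 summit at any score. Of the opening regions, 1430 and 1429 had a lower-ranked summit in day 3 replicates 1 and 2 (median ranks 21999.5 and 22066), and 504 had none at any score. The opening calls were thus mostly regions already listed at day 3 below the compared ranks. The balance between the directions is not a finding, since it turned with the settings. Without day 5 replicate 1 there were 3740 closing and 4491 opening regions, and without day 5 replicate 2 there were 5082 and 6277. Over all summits there were 20508 and 1132, and without day 5 replicate 1, with 34040 summits compared, 11062 and 14039.

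Closing and opening regions lay in different places relative to genes. Within 1 kb of an end of a protein-coding gene (a start or a termination site, since the gene table gives no strand) lay 7.13% of closing regions (exact 95% interval 6.29% to 8.05%), 43.1% of opening regions (41.0% to 45.3%) and 76.6% of regions in all 4 libraries. Between genes lay 62.3%, 29.1% and 8.84% of them, and inside gene bodies 30.6%, 27.8% and 14.5%. The median distance to the nearest gene end was 54833.5 bp for closing, 2708.5 bp for opening and 132.5 bp for regions in all 4. Among opening regions with no day 3 summit at any score the gene-end share was 10.9%, and among closing regions with no day 5 summit at any score 3.79%. Of the 877 opening regions at gene ends, 55 had no day 3 summit at any score, so the others were gene ends that a day 3 list held at lower rank.

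**Figure D1:**
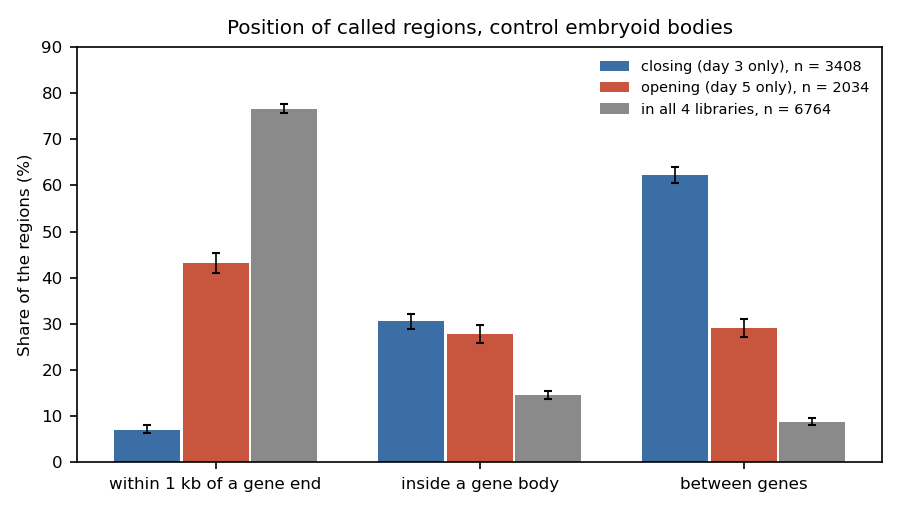
Share of regions (y axis, %) by position (x axis) for closing, opening and shared regions of the control libraries, with exact 95% binomial intervals as bars. Closing regions lay mostly between genes (62.3%) and regions in all 4 libraries mostly at gene ends (76.6%), with opening regions spread over the 3 classes.

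The position of summits was also taken per library, over the same compared summits that the calls used, so that it is no separate support for them. Of compared summits, 50.78% and 50.65% lay within 1 kb of a gene end in the day 3 libraries, and 58.38% and 62.79% in the day 5 libraries. The days did not overlap, and the difference was 9.87 percentage points (50.7% ± 0.0925 against 60.6% ± 3.12, SD, n = 2 each). The two-sided exact permutation p was 0.33, the smallest that 2 against 2 libraries allow. The KO libraries, whose day 5 lists carry the tag D7 in their peak names and so are of uncertain day, gave 51.93% and 51.95% at day 3 against 61.88% and 60.51% at day 5. With days permuted inside each line the mean difference was 9.56 points and the exact p 0.056, the smallest possible over 36 arrangements. The share of summits between genes was 27.67% and 27.69% at day 3 and 19.26% and 16.04% at day 5.

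Genes were assigned to regions by the nearest gene end within 100 kb. Of 13393 regions with a gene, 15.7% were closing and 13.8% opening, for 1823 and 1733 genes. Both kinds of call were found at 174 genes, which was 9.54% of the genes with a closing region and 10.0% of those with an opening one. Across 22 lists of developmental, signalling and control genes, 318 regions were assigned, of which 64 (20.1%) were closing and 74 (23.3%) opening. In the 4 libraries together, closing regions were the more frequent in the pluripotency (7 against 5 of 19), streak (6 against 4 of 13), Nodal (4 against 1 of 20), Wnt target (5 against 2 of 23), FGF (6 against 4 of 22) and epithelial to mesenchymal transition lists (5 against 2 of 19). Opening regions were the more frequent in the cardiac progenitor (11 against 2 of 34), BMP (8 against 5 of 24), haematopoietic (5 against 2 of 15), endothelial (4 against 2 of 9), trophoblast (6 against 2 of 13) and Hox lists (4 against 0 of 5). The fibroblast list, a check for feeder cells, had 3 opening regions of 4. These are counts beside the background, and no list was tested against other genes. The order within most closing-side lists turned when 1 day 5 library was left out. Without day 5 replicate 1 and without replicate 2, closing against opening counts were 7 against 11 and 9 against 12 (pluripotency), 7 against 8 and 7 against 11 (streak), 6 against 9 and 8 against 10 (Wnt targets) and 7 against 10 and 8 against 16 (FGF). They were 7 against 5 and 5 against 9 for the transition list, and the Nodal list kept its order with 5 against 4 and 11 against 8. On the opening side the same settings gave 2 against 22 and 9 against 21 (cardiac), 5 against 28 and 9 against 20 (BMP), 2 against 13 and 3 against 8 (haematopoietic), 2 against 9 and 5 against 11 (endothelial), 2 against 9 and 3 against 7 (trophoblast) and 0 against 10 and 1 against 7 (Hox). Without 1 day 3 library the endothelial counts were equal, at 4 each, and so were the BMP counts without day 3 replicate 2, at 9 each. Over all summits every one of these opening-side lists turned to more closing than opening regions. Closing against opening counts were then 41 against 4 (cardiac), 31 against 2 (BMP) and 8 against 2 (haematopoietic). They were 23 against 3 (endothelial), 11 against 2 (trophoblast), 14 against 1 (Hox) and 16 against 4 (fibroblast). The streak list had 41 against 0. With scores of at least 5 the same lists turned as well, the cardiac list to 25 against 0.

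**Figure D2:**
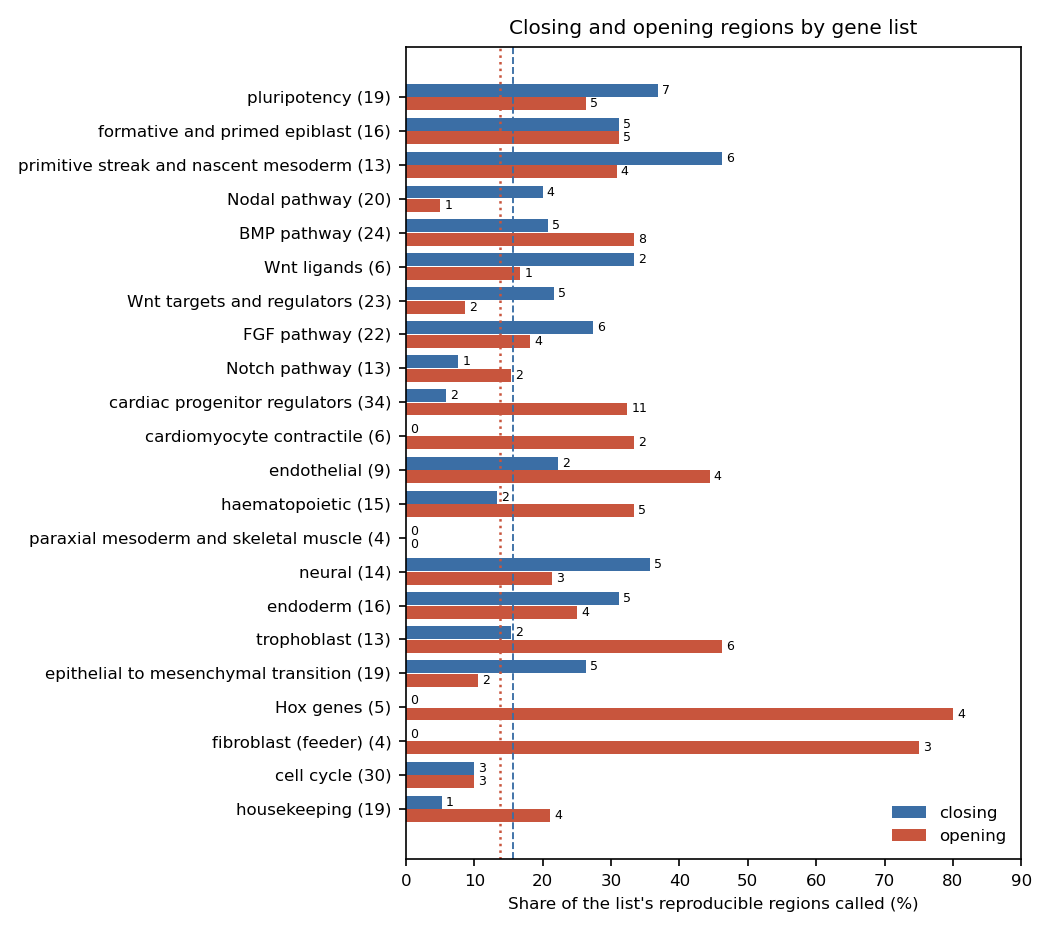
Share of each list's reproducible regions called closing or opening (x axis, %), with the number of regions in brackets and the number called at each bar. The dashed and dotted lines are the closing (15.7%) and opening (13.8%) shares of all regions near genes, and the cardiac progenitor list shows 11 opening against 2 closing regions of 34.

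Regions of the pluripotency list closed at 6 genes. Tfcp2l1, a naive-state transcription factor, had a region inside the gene (chr1:118648155-118648176) at ranks 3003 and 5347 of the day 3 libraries and with no day 5 summit in either library. The Zfp42 promoter (chr8:43307056-43307080) stood at ranks 5571 and 4894 at day 3, was not listed in day 5 replicate 1 and stood at rank 24734 in replicate 2. The Nanog promoter (chr6:122707433-122707477) stood at ranks 10384 and 6543 at day 3 and was not listed in either day 5 library. A second Nanog region 1445 bp from the gene was at ranks 4966 and 5811, then unlisted and at 23567. That the day 5 libraries had no summit or ranked below both day 3 libraries follows from the closing rule. At Pou5f1 (Oct4, the POU factor of pluripotency) a region 939 bp from a gene end held ranks 9517 and 5602 at day 3 and no day 5 summit, and the remaining closing regions were near Sall4 and Tcl1.

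The opening regions of the same list were near Tbx3, Lin28a, Sall4, Dppa4 and Nanog, of which Sall4 and Nanog also had closing regions. Tbx3, a T-box factor used in both the naive state and early mesoderm and heart, had the best-ranked opening gene end of any listed gene (chr5:119670811-119670824), at ranks 17957 and 20329 at day 3 and 2613 and 2522 at day 5. Lin28a, an RNA-binding repressor of let-7 miRNAs, opened at its gene end. The opening Nanog region (chr6:122702719-122702760, 4750 bp from the gene) moved little, from ranks 16482 and 14835 to 9344 and 14316. Klf2 and Klf5, Krüppel-like factors of the pluripotency network, kept their gene-end summits in all 4 libraries. Klf5 stood at ranks 338 and 338 at day 3 and 6227 and 1372 at day 5. In the epiblast list 5 of 16 regions closed and 5 opened. The Fgf5 region (chr5:98255915-98255944), at a growth factor gene that marks the epiblast, held ranks 5370 and 4398 at day 3 and no day 5 summit. The closing epiblast regions at Fgf5, Tet3, Fgf15 and Foxd3 lacked a day 5 summit at any score, as did 2377 of all 3408 closing regions. Dnmt3b, a de novo DNA methyltransferase, opened at its gene end, from ranks 15525 and 19402 to 8424 and 7205.

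Streak genes had 6 closing regions of 13, and 5 of those had no day 5 summit at any score. So did 2377 of all 3408 closing regions, and the day 5 lists were shorter than the day 3 lists. The Mixl1 region (chr1:180697351-180697417, 350 bp from a gene end) held ranks 8457 and 7969 at day 3 and was absent from both day 5 lists. Eomes, the T-box factor of streak and endoderm, had 2 closing regions, at 9787 bp from the gene (chr9:118468379-118468419, day 3 ranks 6279 and 5897) and at its end (chr9:118486887-118486975, ranks 11964 and 12810). Neither day 5 library listed either of them. The region 20407 bp from Msgn1, a bHLH factor of presomitic mesoderm, was at ranks 3815 and 6645 at day 3 and likewise unlisted at day 5. Aplnr, the apelin receptor of nascent mesoderm, had the best-ranked closing region of all lists (chr2:85136138-85136252, 165 bp from a gene end), at ranks 2406 and 1110 at day 3 and 16987 in day 5 replicate 2. Opening regions lay at gene ends of Lhx1 (a LIM homeobox factor), Wnt3 and Rspo3 (a Wnt ligand and a Wnt enhancer) and inside Pdgfra, a receptor of mesoderm. Lhx1 moved from ranks 39795 and 26094 to 2910 and 14351, so that the day 5 libraries differed widely. Of the 23 list genes 13, among them brachyury, Mesp1 and Gsc, had no reproducible region assigned.

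Signalling genes showed the ligands and feedback inhibitors of Nodal on the closing side. Nodal itself (chr10:61406200-61406204, 11770 bp from the gene) held ranks 11032 and 5998 at day 3 and no day 5 summit. Lefty2, a secreted Nodal inhibitor, had a region at ranks 3412 and 4696 that was unlisted in day 5 replicate 1 and at 26909 in replicate 2. For Lefty1, the second such inhibitor, the ranks were 6678 and 4752 and no day 5 summit was listed. The one opening region of the list lay inside Smad3, which carries the signal to the nucleus. The gene ends of Smad2 and Smad4 were in all 4 libraries. On the Wnt side the gene end of Wnt8a, a streak ligand on chromosome 18, went from ranks 7972 and 3957 to no summit. Znrf3, Lgr5, Axin2, Dkk1 and Tcf7l2 (receptors, inhibitors and a nuclear effector) each had 1 closing region. Opening Wnt regions lay at the gene ends of Lef1 and Wnt3 and near Axin2. Znrf3, Lgr5, Axin2 and Tcf7l2 also had regions in all 4 libraries. In the FGF list, closing regions lay near Fgf5, Spry2 (an FGF feedback inhibitor, with 2), Spred1, Fgfr2 and Etv4. Opening regions lay at gene ends of Dusp4, Spred1, Fgfr3 and Spry1.

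**Figure D3:**
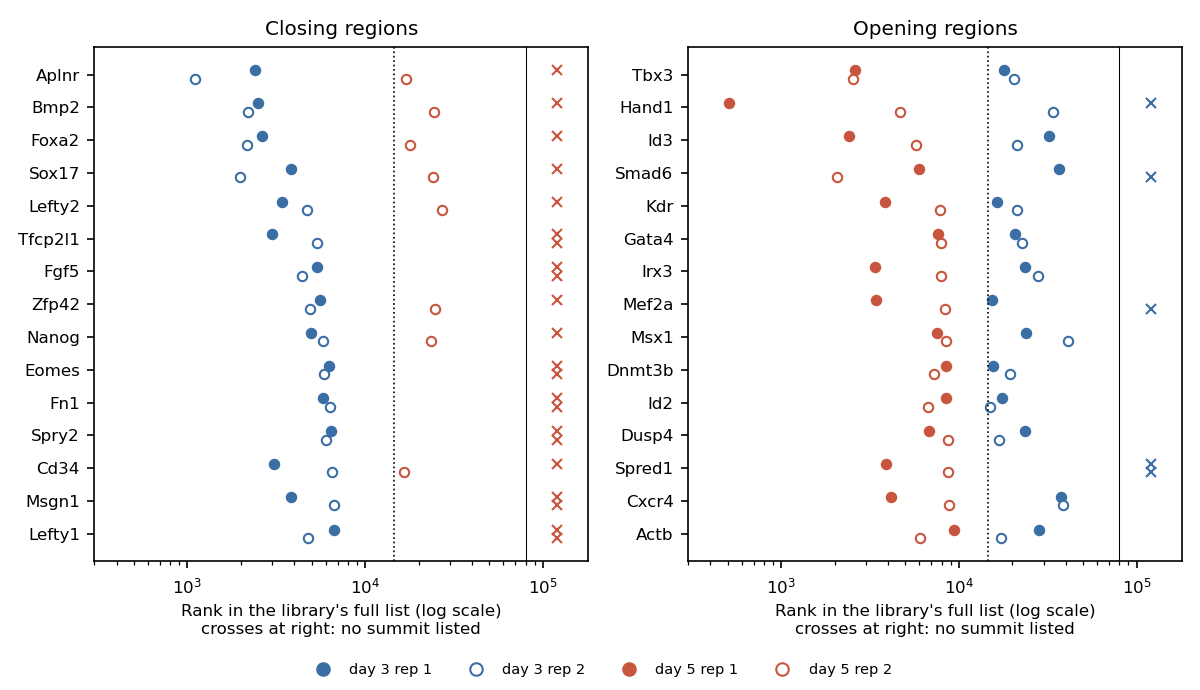
Rank in the full list of each library (x axis, log scale, rank 1 is the highest score) of the best called region of the 15 best-ranked listed genes in each direction. The dotted line is rank 14519, below which summits were not compared, and crosses mark libraries without a summit, so that day 5 replicate 1, whose whole list was compared, shows a cross for every closing region.

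Cardiac progenitor regulators had 11 opening regions of 34, at 7 genes. Hand1, a bHLH factor of heart and extraembryonic mesoderm, had 3 of them and no other reproducible region. Its gene end (chr11:57831933-57832065) stood at ranks 45960 and 36339 at day 3 and 4016 and 5396 at day 5. A region 32699 bp away (chr11:57864846-57864847) was unlisted and at 34023 at day 3, and at 511 and 4690 at day 5. The Hand1 region at chr11:57837052-57837083 had no day 3 summit and held ranks 10523 and 11496 at day 5. The opening rule fixes the order of the days at these regions, so that the ranks show only how far apart the days stood.

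GATA and related genes followed. A region inside Gata4 (chr14:63245315-63245469), a zinc finger factor of cardiac mesoderm and endoderm, went from ranks 20775 and 22799 to 7634 and 7950. Gata5 had 2 opening regions: 1 between genes had no day 3 summit and ranks 10656 and 12029 at day 5, and its gene end went from 23668 and 19912 to 13221 and 6797. Hand2, the relative of Hand1 in the heart, had regions at 4422 bp (from ranks 30332 and 29616 to 7016 and 10052) and at 9607 bp (from 17257 and 18104 to 7254 and 12705). Single opening regions lay at Mef2a, Bmp2 and Smyd1, a muscle histone methyltransferase. The 2 closing regions lay near Bmp2, 72774 bp away (from ranks 2502 and 2192 to none and 24475), and 652 bp from an end of Isl1, a LIM homeobox factor of the second heart field (from 8499 and 11138 to none and 25130). Isl1 kept 2 other regions in all 4 libraries, and so did the gene ends of Gata6, Tbx20 and Myocd. No reproducible region was assigned to Nkx2-5, Tbx5, Tbx1, Hcn4, Smarcd3, Wnt2, Wnt11 or Foxf1.

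Of 20 contractile genes 6 had a reproducible region. Those inside Tnni1, the slow skeletal troponin I of the early heart (no day 3 summit, ranks 9372 and 3841 at day 5), and near Myl4, the atrial light chain (from 21203 and 16200 to 13518 and 13027), were opening. Actn2 and Actc1 regions were in all 4 libraries. In the BMP list the opening regions lay near the targets Id3, Id2, Msx1 and Msx2, the inhibitors Smad6 and Chrd, the signal carrier Smad5 and the ligand Bmp2. The Id3 region (chr4:136140479-136140492) moved from ranks 32259 and 21296 to 2406 and 5765, and that near Smad6 (chr9:64045329-64045335) from 36658 and none to 5955 and 2053. Closing regions lay near Bmp2, Smad1 and the receptor Bmpr1b. Of these 5, 4 had no day 5 summit at any score, beside 2377 of all 3408 closing regions.

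Vessel and blood genes had 4 and 5 opening regions against 2 closing each. At Kdr the gene-end region (chr5:75978264-75978478) went from ranks 16365 and 21174 to 3845 and 7810. Regions at Erg (an ETS factor), Tie1 (a receptor kinase) and Eng (endoglin) had no day 3 summit at any score and day 5 ranks between 7795 and 13019. Cd34, a surface protein of progenitors, had a closing gene end (from ranks 3074 and 6496 to none and 16512), and Sox17 a closing region 62703 bp away. The blood regulators Tal1, Runx1, Cbfa2t3 and Gata2 accounted for the 5 opening haematopoietic regions, 2 of them at Gata2. The Runx1 region (chr16:92884045-92884231) had no day 3 summit and held ranks 12347 and 12399 at day 5. The Tal1 region 3741 bp from the gene went from 23446 and 18331 to 11486 and 12483.

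Hox genes, which pattern the body axis, had 5 reproducible regions for 39 genes, and the 4 at Hoxb1, Hoxd1, Hoxd10 and Hoxc6 were opening. Hoxb1 went from ranks 51661 and 28200 to 9691 and 3854, and all 4 regions had lower-ranked day 3 summits. The caudal factor Cdx2, listed with trophoblast but also a regulator of posterior mesoderm, opened at both gene ends. The upper end (chr5:147307111-147307252) went from ranks 22198 and 27965 to 10332 and 10969, and the lower had no day 3 summit. Besides Cdx2, Hand1 and Krt8 made up the opening trophoblast regions, and both closing ones lay near Tfap2c. In the endoderm list Foxa2, the forkhead factor of definitive endoderm and node, had 3 closing regions and no opening one. Its best (chr2:148046367-148046367, 602 bp from a gene end) went from ranks 2636 and 2156 to none and 17983. Cxcr4, the chemokine receptor of migrating mesoderm and endoderm, had 3 opening regions, the best (chr1:128552034-128552141) from ranks 37488 and 38689 to 4138 and 8765. Neural genes gave 5 closing regions of 14 (at Neurog2, Nes, Zic1 and Olig2) and 3 opening (Irx3, Hes5 and Pax6), and none of the 4 paraxial and skeletal muscle regions was called. The gene ends of the epithelial genes Esrp1 (a splicing factor) and Cdh1 (E-cadherin) closed, each with a lower-ranked summit left in day 5 replicate 2. The other closing regions of the transition list lay near Fn1 and inside Zeb1 and Zeb2, genes of its mesenchymal side. These had no day 5 summit at any score. The gene ends of the epithelial genes Epcam and Ocln kept a compared summit in day 5 replicate 1, and opening regions lay at Itga5 and Cdh2.

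Further sets of genes were followed as checks on what else the libraries could hold. The fibroblast list (feeder cells) had regions at 4 of its 19 genes. Those near Loxl1 and Col1a2 and at the gene end of Acta2 were opening with no day 3 summit at any score, and that of Col5a1 was in all 4 libraries. Summits near the list were 2.066 and 1.378 per 10000 compared summits at day 3 and 8.954 and 6.199 at day 5, against 2.066 in each of the 4 KO libraries. Collagens, Loxl1 and Acta2 are also made by mesodermal and smooth muscle cells. The part of fibroblasts in the opening regions was not tested. Housekeeping genes had 4 opening regions of 19 (among them Actb, Gapdh and Psmb4) and 1 closing (Gapdh), so opening calls were also found at genes used in every cell. Cell cycle genes had 22 of 30 regions in all 4 libraries, 3 closing and 3 opening.

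Summed over lists, the densities of compared summits pointed the same way at most lists. Of 22 lists, 13 were higher in both day 5 libraries than in both day 3 libraries, 0 were lower and 9 overlapped. Fewer of the compared summits lay between genes at day 5 (19.26% and 16.04%) than at day 3 (27.67% and 27.69%). No density over all protein-coding genes is given beside this count, so it is not a result about the members of the lists. Around cardiac progenitor regulators there were 18.6 and 15.15 summits per 10000 at day 3 and 24.11 and 30.99 at day 5. The BMP list gave 13.09 and 12.4 against 17.91 and 28.24, the haematopoietic list 7.576 and 6.199 against 10.33 and 15.84, and the Hox list 2.066 and 0.6888 against 4.821 and 7.576, although the Hox difference turned to -1.01 over all summits. Housekeeping genes were also higher at day 5, at 8.954 and 10.33 against 13.78 and 15.84. Each of the 13 lists had an exact permutation p of 0.33 (adjusted p = 0.564 over 22 lists). With the KO libraries added, 7 lists reached the smallest two-sided exact p of 0.056, and 0 had an adjusted p under 0.05 (adjusted p = 0.175 for the 7), in a design that cannot reach 0.05. In the KO the cardiac list did not show the order seen in the control, with 15.15 and 16.53 at day 3 and 13.78 and 16.53 at day 5, and the difference between the lines was not tested.

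**Figure D4:**
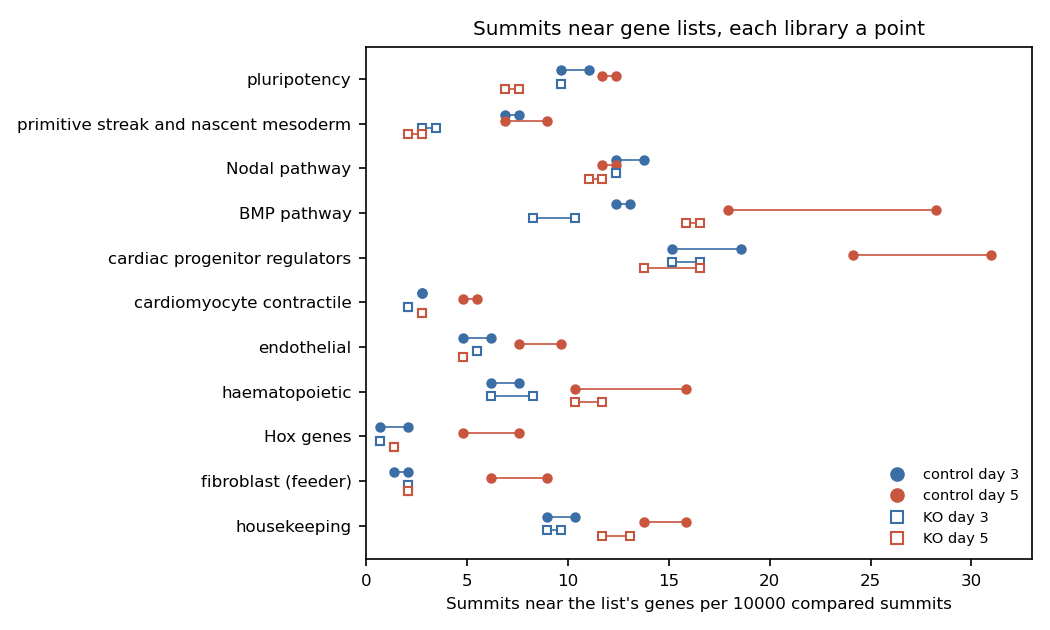
Summits assigned to the genes of 11 lists per 10000 compared summits (x axis), with each library as a point and a line joining the 2 libraries of a group. Control day 5 points lie to the right of control day 3 points for the BMP, cardiac, contractile, endothelial, haematopoietic, Hox, fibroblast, pluripotency and housekeeping lists, and overlap for the streak and Nodal lists. Over all summits the order turned for the pluripotency (-2.86), endothelial (-0.635) and Hox lists (-1.01, day 5 minus day 3).

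The best-ranked closing regions were mostly far from genes or in gene families with near-identical copies, for which mapping of reads is uncertain. The genes nearest to the 10 best were Gm10406, Zfp992, Defa21 (2 regions), Gm46425, Cntnap5a, Lrrc55, Gdi2, Zfp951 and Lrrc4c. All of these regions but that of Gm10406 lay between genes. The regions of Cntnap5a (834920 bp away), Gdi2 (500848 bp) and Lrrc4c (869027 bp) lay outside the window used for assigning genes. The best, near Gm10406 (chr14:7027828-7027833), held ranks 128 and 184 at day 3, and an opening region lay within 1 kb of it (chr14:7027303-7027384, ranks 3094 and 1790 at day 5). At that locus both days held a summit, at different places. In all, 32 closing regions had an opening region within 1 kb.

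The genes nearest to the 10 best opening regions were Mid1, Wdfy2, Alox5ap, Snx16, Fzd4, Ankrd55, Tbx3, Socs3, Gm10406 and Cdkn3. The regions of Snx16 (888742 bp away) and Ankrd55 (199872 bp) lay outside the window used for assigning genes. Those near Mid1 and Wdfy2, like that of Gm10406, had a compared day 3 summit within 1 kb. Inside Fzd4, a Frizzled receptor, a region (chr7:89367856-89367972) went from ranks 30194 and 23144 to 1647 and 1685. Near Alox5ap, which serves leukotriene synthesis, a region (chr5:149320718-149320778) went from 23723 and 22397 to 1359 and 1280. Inside Socs3, a feedback inhibitor of LIF and cytokine signalling, the ranks were 21830 and 19098, then 1188 and 2738. At these 3 genes the order of the days follows from the opening rule.

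Genes with several calls in 1 direction were also counted. Rex2 (7 closing), Clybl (5), Zfp640 (4) and Sfi1 (4) had the most closing regions. Of the 30 genes with 3 or more, those with 3 and the best ranks were Foxa2, Gm15319, Gm31714, Tasp1, Fsip2 and Klf12, and Gm15319 also had 2 opening regions and Gm31714 also had 1. On the opening side 13 genes had 3 or more, and the best-ranked 10, with 3 each, were Ddc, Hand1, Rad51b, Rbpms, Ndufa10, Trim71, Cxcr4, 2610008E11Rik, Stx18 and Rbfox2. Of these genes, Foxa2, Hand1 and Cxcr4 were members of the lists. Rex2 and Zfp640 are zinc finger genes in clusters of close copies, where reads may map to more than 1 place.

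Some listed genes had regions of both kinds: Axin2, Bmp2, Cdk6, Erg, Fgf15, Gapdh, Nanog, Sall4 and Spred1. At Axin2, a Wnt target, a region 8016 bp from the gene closed (from ranks 7296 and 4936 to none and 30523) and 1 at 10898 bp opened (from 19176 and 21836 to 6728 and 12307). The Axin2 region 61010 bp from the gene was among the strongest in each library, at ranks 45, 37, 39 and 39. At Bmp2 the closing region lay 72774 bp away and the opening region 8040 bp away, the latter with no day 3 summit and ranks 11009 and 14195. At Erg the closing and opening regions both lay inside the gene. At Spred1, an inhibitor of Ras signalling, a region 12236 bp away closed and the gene end opened with no day 3 summit. At Gapdh and Cdk6 the closing and opening summits lay within 1 kb of each other.

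Regions listed in every library were compared by rank. In 30.0% of the 6764 such regions both day 5 ranks were better than both day 3 ranks, and in 19.7% both day 3 ranks were better. Gene ends of Sdha (a subunit of complex II, from ranks 9592 and 9550 to 1917 and 2855) and Zfpm1 (a GATA cofactor, from 8910 and 7613 to 2591 and 2497) belonged to the first set. Klf5 and Hey2 (a Notch target of the heart, from 512 and 577 to 4385 and 1860) belonged to the second. Ranks depend on the whole list, and no test was made on them.

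The KO libraries, which the calls did not use, allowed the calls to be looked up in other libraries labelled with the same days, with the doubt about the day of the KO day 5 lists given above. Of the 3408 closing regions, 577 (16.9%) met the closing rule in the KO libraries and 14 (0.411%) the opening rule. Of the 2034 opening regions, 447 (22.0%) met the opening rule and 4 (0.197%) the closing rule. Over all 15158 regions, which include these, 4.45% met the closing rule and 5.14% the opening rule. Summits at closing regions were found in 64.8% and 64.5% of cases in the KO day 3 libraries and 37.1% and 39.5% in the KO day 5 libraries. For opening regions the shares were 12.7% and 13.8% at day 3 and 47.8% and 43.4% at day 5. The days did not overlap in either set, and the order of the days was that of the control calls. In full, the KO lists held 59006 and 53456 summits at day 3 and 48391 and 42129 at day 5, and the part of list length in the calls was not tested.

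**Figure D5:**
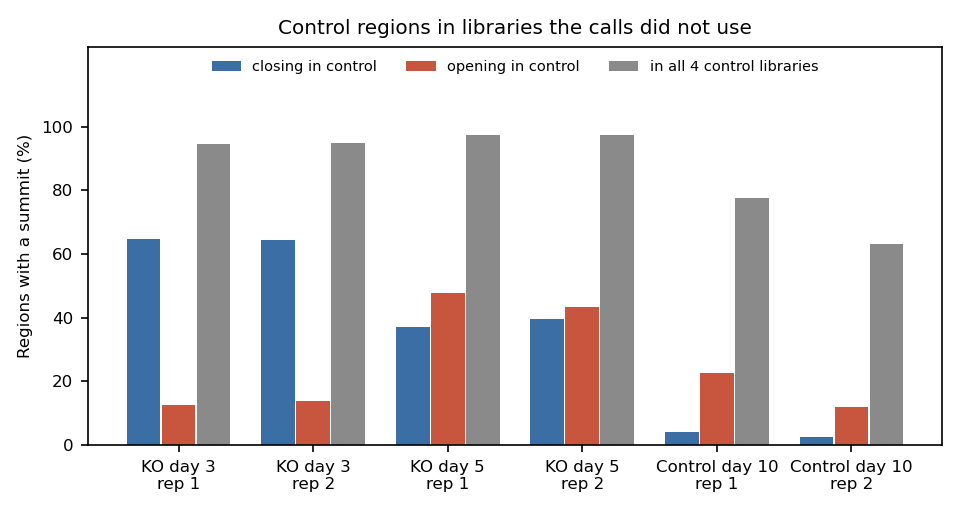
Share of closing, opening and shared control regions (y axis, %) that held a summit in each KO library of days 3 and 5 and each Control library of day 10. Closing regions were held more often at KO day 3 (64.8% and 64.5%) than at KO day 5 (37.1% and 39.5%), and opening regions less often (12.7% and 13.8% against 47.8% and 43.4%).

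Among listed genes, the closing rule was met in the KO at Bmp2, Lefty1, Tet3, Sall4, Wnt8a, Znrf3, Zeb2, Nes, a Nanog region, a Neurog2 region and a Cdk6 region. The opening rule was met at Id3, Mef2a, Dusp4, Pax6, Gapdh, Notch3, Cdkn1a, Pdgfra and Spry1. No compared KO summit of either day lay at the closing regions of Mixl1, Eomes (both) and Nodal or at the 3 opening regions of Hand1. The same held for 891 of all 3408 closing and 933 of all 2034 opening regions. Tbx3 and Kdr had KO summits on both days. So did the closing regions of Zfp42, Tfcp2l1, Fgf5, Lefty2 and Cd34 and the best closing region of Foxa2. Both KO day 5 libraries held 968 (28.4%) of all closing regions, and both KO day 3 libraries held 149 (7.33%) of all opening regions. At day 10 the Control lists, which were shorter (10548 and 7764 summits) and lack the duplicate-removal tag in their peak names, held 1.47% of closing regions in both libraries, 8.70% of opening regions and 60.6% of regions in all 4. Day and processing cannot be told apart there.

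Promoter sequence was described for called regions with a summit inside the table's windows. The table held 32619 promoters, 17274 of 21631 protein-coding genes and 280 of the 411 listed symbols. The median promoter was 53.0% G or C with 7 CG dinucleotides. With a closing summit (163 promoters) the medians were 59.3% and 14, with an opening summit (807) 61% and 22, and with a summit in all 4 libraries (5556) 63.3% and 24. Closing promoters were thus between the table and the shared promoters in CG content. The letters searched, on both strands, were AGATAA for GATA factors, AGGTGTGA for T-box factors, TGTTTAC for forkhead factors, ATGCAAAT for the POU octamer, ACAATGG for SOX factors, TATTTTTAG for MEF2, CANNTG for the general E-box, CTTTGAT for TCF/LEF, TAATTA for homeobox factors, GTCTAGAC for SMADs, GGGCGG for the GC box, GGAATG for TEAD factors, CCGGAAG for ETS factors and CATCTG for the HAND/TWIST E-box. The last is also a match to CANNTG.

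ETS letters were present in 8.92% of all promoters, 11.0% of closing, 22.8% of opening and 23.3% of shared ones. GC boxes were present in 35.9%, 55.8%, 63.3% and 76.3% in the same order, and CANNTG in 72.3%, 77.9%, 60.8% and 59.1%. The POU octamer was in 1.75% of all promoters, in 5 of the 163 closing (3.07%), in 6 of the 807 opening (0.743%) and in 1.57% of shared ones. GATA letters were in 11.2% of all promoters, 6.75% of closing, 6.32% of opening and 3.55% of shared ones. The other motifs were in at most 17.1% of all promoters, and MEF2 letters in 0.521%, in 0 of the closing and 2 of the opening ones. In ETS, GC box and CANNTG letters, the opening promoters were nearer to the shared promoters than to the whole table. The sets also differ in base composition, as given above, and a match does not place a factor at any site.

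Chromosomes differed in the share of regions called. On X, 205 of 549 reproducible regions (37.3%) were closing and 8.93% opening, against 22.5% and 13.4% over all chromosomes. Chromosome 11 had 12.2% closing and 21.1% opening, and chromosome 19 had 13.8% and 18.1%. At Foxk1, the forkhead gene of the series, 2 regions were in all 4 libraries, 1 region 82036 bp away closed (chr5:142319460-142319462, ranks 13861 and 11512 to none and 16669), and 1 inside the gene opened (chr5:142416418-142416489, ranks 29905 and 19207 to 7092 and 7692). The gene end of Foxk1 held ranks 9290 and 8089 at day 3, none in day 5 replicate 1 and 8475 in replicate 2. Foxk2, its closest relative, had its gene-end region in all 4 libraries, at ranks 10842, 6884, 10869 and 3100.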

How the data were processed

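ATAC-seq summit lists of 4 control libraries were analysed, with the KO and day 10 Control libraries for comparison. Bowtie2 2.2.4, MACS2 and the mm10 build are named in the submitters' processing notes, and no MACS2 version is given in the sources used here. The authors deposited 1 list per library, so replicates were not pooled. The deposited score is a −log10 value in the MACS2 format, of a p-value or a q-value (not stated). Scores served only to rank summits within their list. No read counts are held, so depth is unknown.

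Summits on chromosomes 1 to 19 and X were reduced to the 14519 best per library, merged by single linkage at 250 bp and called by presence, with Python 3.11.15, pandas 2.3.3, NumPy 2.4.6 and SciPy 1.17.1. The calling was tested on simulated lists. Genes came from the RefSeq table of GRCm38.p6 (21631 protein-coding genes). It gives no strand, so the planned start site became the nearer gene end within 100 kb. All 411 symbols of 22 lists matched. Named are the 10 best regions and the 10 genes with most regions per direction, up to 5 genes per list and direction by rank, list genes with both calls or a called gene end, and Foxk1 and Foxk2. A few genes that the rule names are not reported here. Single regions in all 4 libraries or in 3 were named after their values were seen. Members and lists were chosen with earlier results of these data known.

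Shares and densities per library were tested by exact permutation of days (two-sided), with Benjamini-Hochberg adjustment over 22 lists. Intervals are exact Clopper-Pearson. Alternatives were other merge distances, numbers of summits, score limits, absence rules, windows, left-out libraries, a replicate block and, chosen after seeing the data, start sites of the promoter table. Same-numbered replicates were checked for pairing on the 6764 regions in all 4 libraries.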

Additional observations from a re-analysis of the deposited data

Results flagged for a closer look

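Around pluripotency genes the density of compared summits was higher at day 5 than at day 3 in the control (by 1.72 per 10000 summits) and differed by -2.41 in the KO, with every library on the side of its group. The lines thus differed by 4.13, and this difference was not tested. The control direction turned when fewer or all summits were compared, as given below. Around endothelial genes the control differed by 3.10 and the KO by -0.689, a difference between the lines of 3.79 that was likewise not tested. Here too the control direction turned with fewer or all summits.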

How the results depend on the processing

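Closing regions (3408) numbered 1365 with N divided by 2, 20508 over all summits, 17356 with scores of at least 5 and 11062 without day 5 replicate 1 at a raised N. Leaving out 1 library gave 3740 to 5082. Opening regions (2034) numbered 1255 with merging at 100 bp, 900 with N divided by 2, 1132 over all summits, 504 with scores of at least 5, 504 with absence in the full lists and 14039 without day 5 replicate 1 at a raised N. Leaving out 1 library gave 2545 to 6277, with 4491 without day 5 replicate 1 and 6277 without replicate 2, where 1 library alone stands for its day. Opening counts thus depended on both day 5 libraries and on how absence was defined, and the cause was not tested. The closing share met again in the KO (16.9%) was 32.1% with N divided by 2 and 21.1% to 25.8% without 1 KO library. The opening share (22.0%) was 35.2%, and 26.2% to 30.4%. The gene-end difference kept its direction under every alternative run, between 7.66 and 22.5 points.

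List densities turned direction, as day 5 minus day 3 per 10000 summits, as follows; the cause was not tested. With N divided by 2 they were -5.51 (pluripotency), -0.689 (epiblast), -4.13 (streak), -2.76 (FGF), -0.689 (endothelial) and -1.38 (cell cycle). Over all summits they were -2.86 (pluripotency), -4.13 (epiblast), -5.69 (streak), 2.96 (Nodal), -1.87 (Wnt ligands), -0.927 (Notch), -0.635 (endothelial), -5.20 (paraxial) and -1.01 (Hox). The neural list gave 1.03 with a 20 kb window. Leaving out 1 library gave -0.344 (without day 5 replicate 1) to 1.72 for the streak list and -1.72 to 2.41 for the epithelial to mesenchymal transition list (-1.72 without day 5 replicate 1, -0.689 without day 3 replicate 1). It gave -1.03 to 0.344 for the endoderm list (0.344 without day 5 replicate 2). The cardiac, BMP, haematopoietic, trophoblast, fibroblast and housekeeping lists kept their direction in every alternative run.

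The labels share replicate numbers between days, but the rank deviations of same-numbered libraries were not correlated (-0.0234 over 6764 regions). With 2 libraries per day this cannot decide whether same-numbered libraries share an origin. The main results did not pair them. With the replicate block the gene-end difference stayed 9.87 points (exact permutation p = 0.5, the smallest for 2 pairs), and no call changed. Read depth is unknown, and a region absent from a short list may be open below its detection.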
